A study of Mus musculus with 6 samples.

Results

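The genes described here are 54 mouse genes whose products build the mitotic spindle, move and separate chromosomes, or divide the cell. They were picked by name for these roles, with earlier results of these data known, and found in the deposited tables by NCBI gene identifier. They are 54 of the 17254 genes with reads in any library. All 54 passed the filter on low values, a mean of at least 1 FPKM (fragments scaled by transcript length and library size) over the 6 libraries, and so were tested among 11717 genes.

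Bulk RNA was sequenced from cultured mouse neural stem and progenitor cells (NSPCs) in 3 groups of 2 libraries: untreated control cells, cells kept with paraquat (PQ), and cells kept with N-acetylcysteine (NAC), each for 48 h. PQ cycles with oxygen and raises superoxide, whereas NAC supplies thiols and counters oxidants, so the groups ask how expression changes when the redox state is shifted either way. The PQ dose was 5 µM by the label of PQ 1 and by the study's methods, which also give 5 mM for NAC, while the labels of the remaining libraries carry no dose. The labels of control 1 and PQ 1 name an Illumina protocol and those of control 2, PQ 2, NAC 1 and NAC 2 name BGISEQ-500, so both NAC libraries lie on the BGISEQ side. The study's methods name Illumina sequencing alone for the RNA libraries, so the platform split used below rests on the labels. Only the labels of control 1 and PQ 1 give a strain, C57BL/6, and a genotype, an Ink/Ark knockout. By the study's methods the cells are an Ink/Arf-/- culture of neonatal origin, kept in EGF and bFGF, in which stem cells (resting or dividing) are not separated from precursors of neurons and of oligodendrocytes. The totals of expected counts (reads assigned to genes by the quantification program) ran from 9680436 in PQ 2 to 10698241 in NAC 1. The labels do not say whether libraries of a group come from separate cultures, so each p-value below measures differences against the spread between these libraries.

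Marker genes were read in FPKM to check the labelled cell type. Of 8 stem and progenitor markers, 7 passed the filter, and their summed level was 3276 and 3358 FPKM in control, 3662 and 3709 in PQ and 2532 and 2460 in NAC libraries. The most abundant of them was Vim, which encodes vimentin, while Hes5 lay at or near 0 (0.08 FPKM in control 1 and 0.16 in PQ 2, with 0 elsewhere). Oligodendrocyte progenitor markers summed to 651 and 752 FPKM in control, 767 and 665 in PQ and 815 and 924 in NAC libraries, with Olig1 most abundant in the summed list and Sox10 at 0 in each control and PQ library. The 5 astrocyte markers, led by Slc1a3, summed to 110.3 and 96.6 FPKM in control, 78.1 and 79.7 in PQ and 135 and 134 in NAC libraries. Neuronal markers summed to 38.02 and 35.7 FPKM in control, 33.5 and 34.6 in PQ and 65.2 and 58.5 in NAC libraries, nearly all from Map2, with Rbfox3 at 0 in all 6 libraries. The other lists were far lower: the microglial sum was at most 4.50 FPKM with Tmem119 at 0 in 5 libraries, the endothelial sum at most 0.54 with Cldn5 at 0 in all 6, and the fibroblast sum at most 5.49 FPKM with Pdgfrb at or near 0. Of the genes in these low lists that passed the filter, the microglial marker P2ry12 was called higher in NAC (1.18, edgeR adjusted p = 0.00329) and not called in PQ (0.55), and the fibroblast marker Col3a1 was called lower in PQ (-0.90, edgeR adjusted p = 2.18e-04) and not called in NAC (-0.37). Each of these sums follows its most abundant genes, and other markers of the same list went other ways. In the stem and progenitor list, Vim (2073 FPKM on average) had a log2 fold change of 0.18 in PQ, without a call, and -0.75 in NAC, called lower by edgeR. Nes was called higher in PQ (0.34) and lower in NAC (-0.28), while Sox2 was called lower in both (-0.35 and -0.31). Pax6 (-0.28 in PQ and 0.10 in NAC), Msi1 (-0.24 and 0.07), Fabp7 (0.02 and 0.11) and Notch1 (0.10 and -0.08) were not called. The called stem and progenitor markers thus went both ways in PQ. In NAC those called, Vim, Nes and Sox2, were all lower, and the markers not called lay on both sides of 0. In the astrocyte list, Slc1a3 (98.9 FPKM on average) was called lower in PQ (-0.48) and higher in NAC (0.29), whereas Aldh1l1 was called higher in PQ (1.17) and not called in NAC (-0.49). Gfap (-0.05), Aqp4 (-0.15) and S100b (0.65) were not called in PQ, and in NAC Gfap (1.23) and Aqp4 (1.76) were called higher and S100b (1.17) was not called. Astrocyte markers were thus mixed in PQ and mostly higher in NAC. Map2 was called higher in NAC (0.77), but Tubb3, which averaged under the filter, stood at 2.38 and 1.30 FPKM in control, 0.72 and 0.47 in PQ and 0.32 and 0.44 in NAC libraries, and Dcx lay near 0 throughout. Among oligodendrocyte progenitor markers, Olig1 (0.41) and Pdgfra (0.40) were called higher in NAC, Olig2 (0.07) was not called, and Cspg4, also under the filter, averaged 0.915 FPKM in control and 0.715 in NAC. Some markers thus move with the groups compared below, and their part in the results was not tested.

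A dividing cell condenses its chromosomes, attaches them through kinetochores to spindle microtubules, waits until every kinetochore is attached, and then cuts cohesin and splits in a ring of actin and myosin between the poles. The mRNAs for this machinery rise late in the cell cycle: the MuvB complex holds their promoters silent in resting cells, with the DREAM partners, and activates them with B-Myb and FoxM1 in dividing cells, in large part through a promoter element called the cell cycle genes homology region (CHR). In the germinal zones of the brain the same genes are read as a sign of dividing progenitors, since quiescent neural stem cells and postmitotic neurons carry little of these mRNAs.

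Members of the list moved together in PQ (below), and for this reason promoters are shown for Cdk1, Cdc20, Mki67, Top2a, Kif22, Kif11, Espl1 and Ccnb1. Those of Pttg1 and Nusap1, not called in PQ, and of Anln, called lower in PQ and also in NAC, are set beside them. That of Mybl2 was added after its values were seen, because it changed strongly without either motif. RefSeq promoter sequences (build GRCm38.p6, 250 bases before to 50 bases after each start site) were found for 45 of the 54 members. Foxm1, Ccna2, Smc4, Spc24, Aurkb, Cdc25c, Tpx2, Incenp and Kif20a are the remaining 9. Each line gives the 120 bases that end just before the start site, 5′ to 3′ on the gene's own strand. Capitals mark the CHR (TTTGAA or TTCGAA on either strand) and the CCAAT box (CCAAT on either strand), the element that binds NF-Y.
Cdk1: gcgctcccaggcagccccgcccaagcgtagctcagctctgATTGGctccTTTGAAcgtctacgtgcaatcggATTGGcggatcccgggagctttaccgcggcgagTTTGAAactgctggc
Cdc20: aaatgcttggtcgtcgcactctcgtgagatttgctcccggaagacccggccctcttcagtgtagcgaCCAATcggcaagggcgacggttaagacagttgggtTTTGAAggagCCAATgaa
Mki67: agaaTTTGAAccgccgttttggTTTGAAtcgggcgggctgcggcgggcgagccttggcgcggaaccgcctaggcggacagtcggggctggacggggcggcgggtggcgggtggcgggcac
Top2a: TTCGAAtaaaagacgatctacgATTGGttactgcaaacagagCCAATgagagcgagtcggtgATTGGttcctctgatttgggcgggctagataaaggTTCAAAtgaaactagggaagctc
Kif22: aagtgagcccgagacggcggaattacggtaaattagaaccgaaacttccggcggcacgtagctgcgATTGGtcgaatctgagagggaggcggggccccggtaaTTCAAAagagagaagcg
Kif11: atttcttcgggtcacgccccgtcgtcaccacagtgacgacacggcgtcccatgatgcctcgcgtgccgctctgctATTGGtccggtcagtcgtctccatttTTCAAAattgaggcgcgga
Espl1: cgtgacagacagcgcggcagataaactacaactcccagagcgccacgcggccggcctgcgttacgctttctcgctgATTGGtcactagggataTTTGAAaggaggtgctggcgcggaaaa
Ccnb1: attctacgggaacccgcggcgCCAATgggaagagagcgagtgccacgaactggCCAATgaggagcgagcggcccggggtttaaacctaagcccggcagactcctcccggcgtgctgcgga
Mybl2: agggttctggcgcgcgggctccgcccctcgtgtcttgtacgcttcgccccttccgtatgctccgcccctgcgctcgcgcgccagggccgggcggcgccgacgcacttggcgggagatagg
Anln: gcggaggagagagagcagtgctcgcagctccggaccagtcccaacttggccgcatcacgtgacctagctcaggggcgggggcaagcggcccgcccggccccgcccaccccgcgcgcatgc
Pttg1: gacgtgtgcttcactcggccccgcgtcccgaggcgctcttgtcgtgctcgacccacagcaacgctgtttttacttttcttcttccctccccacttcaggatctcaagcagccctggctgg
Nusap1: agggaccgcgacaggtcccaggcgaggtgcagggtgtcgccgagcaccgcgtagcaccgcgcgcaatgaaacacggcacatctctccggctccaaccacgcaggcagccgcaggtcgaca
The sequences lie at chr10:69352913-69353032 (minus strand) for Cdk1, chr4:118437344-118437463 (minus strand) for Cdc20, chr7:135716380-135716499 (minus strand) for Mki67, chr11:99024190-99024309 (minus strand) for Top2a, chr7:127042421-127042540 (minus strand) for Kif22, chr19:37376262-37376381 (plus strand) for Kif11, chr15:102296173-102296292 (plus strand) for Espl1, chr13:100786487-100786606 (minus strand) for Ccnb1, chr2:163054515-163054634 (plus strand) for Mybl2, chr9:22389207-22389326 (minus strand) for Anln, chr11:43425982-43426101 (minus strand) for Pttg1 and chr2:119618178-119618297 (plus strand) for Nusap1. Cdk1, Cdc20, Top2a, Kif22, Kif11 and Espl1 have a CHR close to the start site with a CCAAT box upstream of it. Other members have CHR letters only after the start, outside such a stretch, as in Plk1 (31 bases after), Bub1 (15) and Racgap1 (6). The stretches shown thus do not stand for all members. In Mki67 both CHR matches lie farther out, and in Ccnb1 the stretch has CCAAT boxes without these CHR letters. Anln, Pttg1 and Nusap1 have neither motif in the stretch shown, although Anln has CHR letters 22 and 29 bases after the start. Neither motif was found for Mybl2 either, which had the largest PQ change after Mki67, whereas Bub3, with the smallest change among the called members and a call lost in all 14 alternatives, has both in its full windows. Over the members with a promoter, the median PQ change was -0.64 for the 35 with CHR letters and -0.50 for the 10 without, a difference that was not tested.

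Over the full windows, CHR letters were found for 35 of the 45 members with a promoter (77.8%), against 21.7% of the 27025 genes in the RefSeq table, 16.1% of the 9339 tested genes with a promoter and 19.2% of all 32851 promoters. CCAAT was found for 32 members (71.1%), against 41.1% of all genes, 43.8% of tested genes and 37.4% of all promoters. Both motifs were present for 30 members (66.7%), against 9.65% of all genes, and their matches overlapped in 1 member promoter. An E2F-type motif (TTTCCCGC or TTTGGCGC on either strand) was found for 4 members, Kif15, Kif18a, Ncapd2 and Ncapg (8.89%), against 1.80% of all genes, 3.67% of tested genes and 1.56% of all promoters, and overlapped neither of the other motifs. Matches were counted in each promoter, and Bub3, Ect2 and Prc1 have 2 overlapping promoters each, so the 52 CHR matches are 48 distinct sites and the 70 CCAAT matches 64. The median position of the CHR matches, by their first base, was -16 relative to the start site, or -6.5 for the 44 matches of the 42 members with 1 promoter. At -60 or later began 67.3% of all CHR matches and 68.2% of those 44, against 28.0% of the 7260 matches over all promoters. The CCAAT matches had a median position of -63.5, or -61.5 for 58 matches of members with 1 promoter. At -60 or later began 48.6% of them, against 33.4% over all promoters. No CHR letters were found for Birc5, Ccnb1, Cenpe, Kif18a, Mad2l1, Mybl2, Ncaph, Nuf2, Nusap1 and Pttg1. These matches describe letters in a window and are not measured binding sites.

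**Figure D1:**
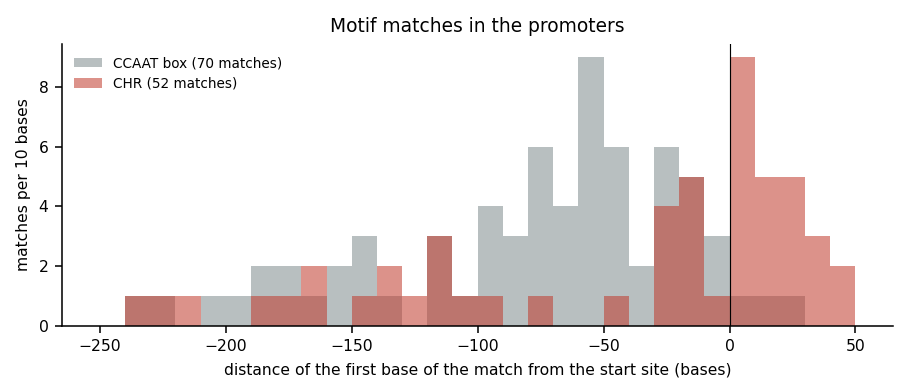
Number of CHR and CCAAT matches in the members' promoters (vertical axis, per 10 bases) counted in each promoter, by the distance of their first base from the start site, in bases (horizontal axis). CHR matches gather near the start site (median -16) and CCAAT matches farther upstream (median -63.5).

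In PQ against control, 52 of the 54 members were called lower (edgeR, Benjamini-Hochberg adjusted p under 0.05 over all genes tested), where 9.45% of the 11717 tested genes were called lower. No member (0) was called higher, where 9.76% of tested genes were, and 0 members were higher at an unadjusted edgeR p under 0.05 or by DESeq2. Both PQ libraries lay below both control libraries for all 54 members, which held for 28.7% of tested genes. The median log2 fold change of the members was -0.63, or 64.5% of the control level, against -0.001 over all tested genes. Their quartiles were -0.80 and -0.49 and their range -1.13 to -0.19, so the members moved by unequal amounts in 1 direction. A lower value in bulk RNA can come from fewer dividing cells or from less of these mRNAs per cell, which cannot be told apart here. The call for Bub3 (edgeR adjusted p = 0.0498) was lost under all 14 alternative analyses, while its change there stayed between -0.28 and -0.24. The same 34 members kept their call under all 14 alternatives. Leaving out PQ 1 left 35 members called and a median of -0.53, with 866 genes called in place of 2250, while leaving out PQ 2 left 49 members called and a median of -0.72.

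Summed over the members, the normalised level was 9939 and 9383 CPM (counts scaled to library size with TMM factors) for control, 5698 and 6366 CPM for PQ and 10310 and 9446 CPM for NAC. The means were 9661 ± 393 CPM in control (SD, n = 2), 6032 ± 472 in PQ and 9878 ± 611 in NAC. The PQ sum was thus 0.624 of the control sum, and the NAC sum 1.02 of it, with the NAC libraries on either side of control 1. Median log2 differences from the control mean, over the members, were 0.04 in control 1, -0.04 in control 2, -0.72 in PQ 1, -0.53 in PQ 2, 0.05 in NAC 1 and -0.02 in NAC 2. The PQ libraries lay well outside the span of the other 4, and PQ 1 lay lower than PQ 2.

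**Figure D2:**
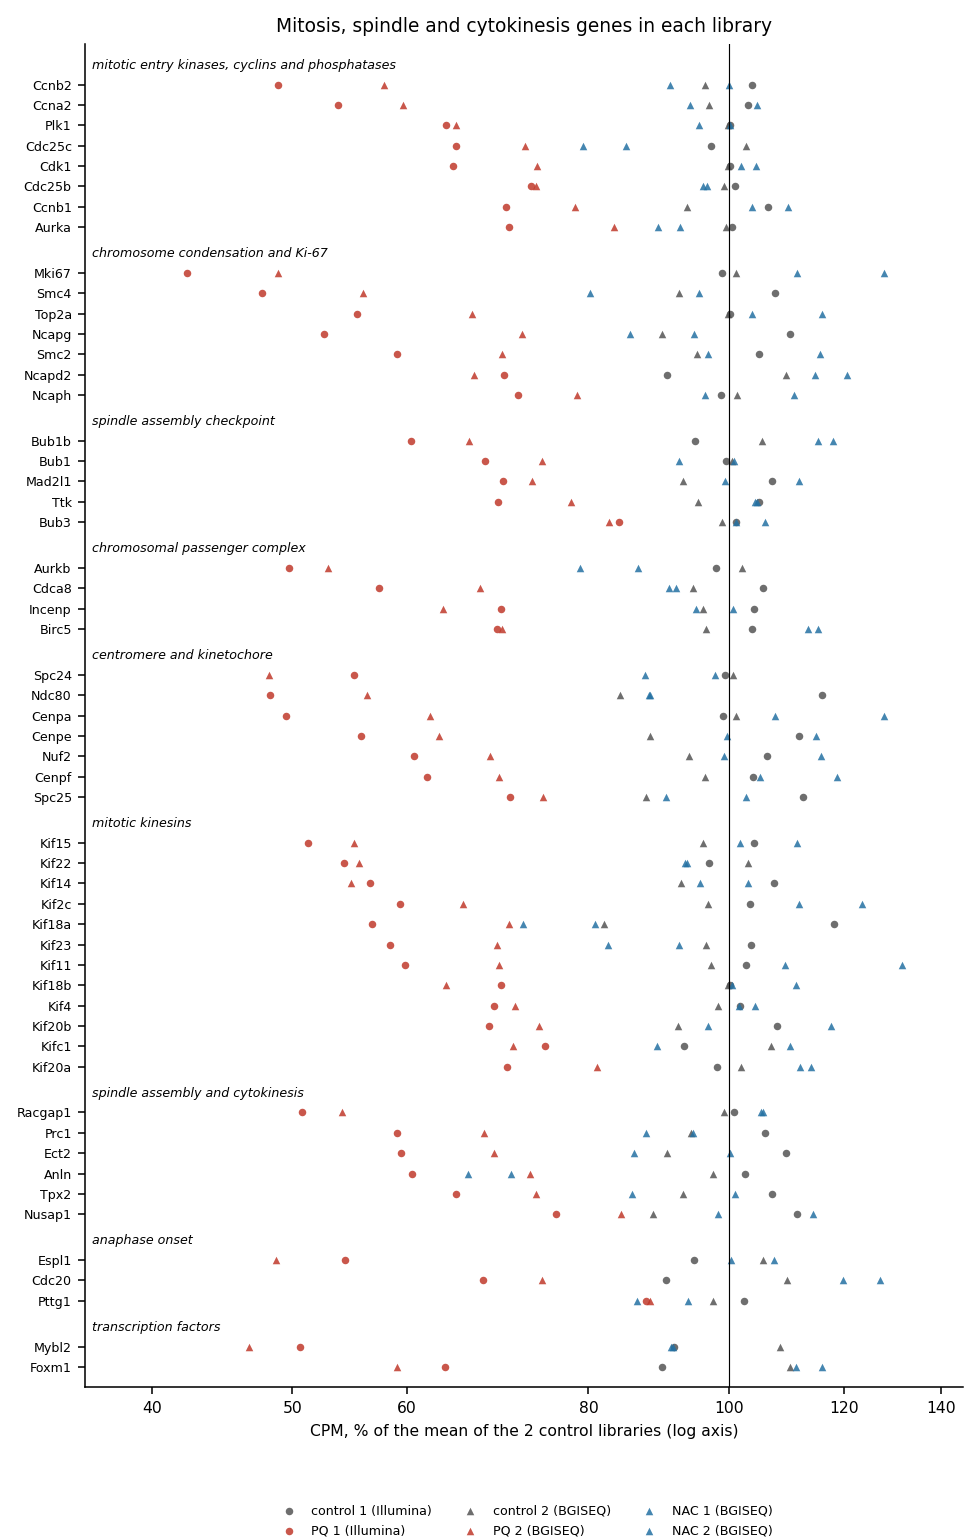
Normalised level of each member in each of the 6 libraries, in percent of the mean of the 2 control libraries (horizontal log axis), with the members grouped by role, a colour for each group and a marker shape for each labelled platform. The PQ points lie to the left of the control points for all 54 members, while most NAC points lie around 100.

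Because the platform named in the labels differs within the control and PQ groups, PQ was also set against control within each platform, with 1 library a group. The Illumina pair gave a median log2 difference of -0.76 over the members, with a range of -1.26 to -0.23. The BGISEQ pair gave a median of -0.48, with a range of -1.21 to -0.07. All 54 members were lower in PQ in each pair, so the direction held on both sides of the platform split, with a larger median in the Illumina pair. With platform as a term in the edgeR model, 51 members were called lower and Bub3 was the call that was lost. Within BGISEQ, the NAC libraries against control 2 gave a median of 0.06, and 19 of the 54 members were negative.

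**Figure D3:**
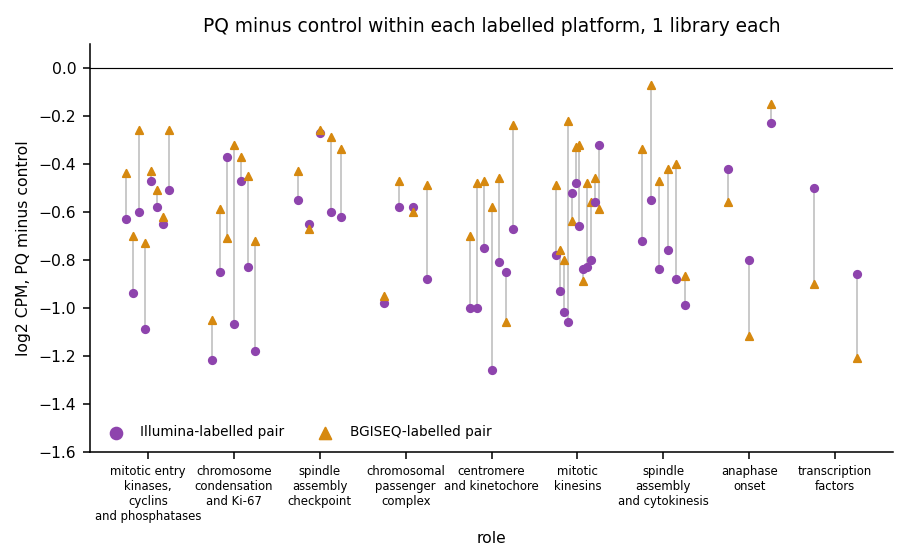
Log2 difference of PQ from control in normalised level (vertical axis) for each member, grouped by role, with a circle for the Illumina pair, a triangle for the BGISEQ pair and a line joining the values of a gene. All points lie below 0, around medians of -0.76 and -0.48.

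NAC against control gave a different picture for the same genes. Only Anln was called, lower (1 of 54 in edgeR, where 9.64% of tested genes were called lower). No member (0) was called higher, where 9.01% of tested genes were, and DESeq2 also called 1 lower and 0 higher. At an unadjusted edgeR p under 0.05, 4 members were lower and 6 higher. Over all tested genes, the shares at that p are at least the 9.64% and 9.01% called after adjustment. These counts, and those for the roles below, are thus not read as changes of the members. The median log2 fold change was 0.04, with 26 members negative and 28 positive and a range of -0.55 to 0.30, against a median of -0.002 over all tested genes. A share of calls below the background is thus what the list showed, and a missing call does not show that a level was unchanged. Leaving out control 2 gave calls for Cdc20, Foxm1, Kif18a, Ncapd2 and Ndc80 besides Anln and brought the median to -0.01, whereas without control 1 only Anln was called. Leaving out NAC 1 brought the median to -0.03, and leaving out NAC 2 added a call for Kif11.

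PQ against NAC, the widest contrast in redox treatment, gave 49 of 54 members lower in PQ (edgeR), where 15.7% of tested genes were called lower. No member (0) was higher, where 16.0% of tested genes were, and 0 were higher at an unadjusted edgeR p under 0.05 or by DESeq2. The median was -0.63, against 0 over all tested genes, and the members not called were Anln, Pttg1, Cdc25c, Aurka and Kif18a. This contrast shares its PQ libraries with PQ against control and its NAC libraries with NAC against control, and the other pair shares the control libraries, so the 3 comparisons are not independent. Both NAC libraries carry the BGISEQ label and PQ 1 the Illumina label, and with platform as a term in edgeR 49 members were called. Leaving out PQ 1 left 41 members called, and leaving out NAC 1 left 44.

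**Figure D4:**
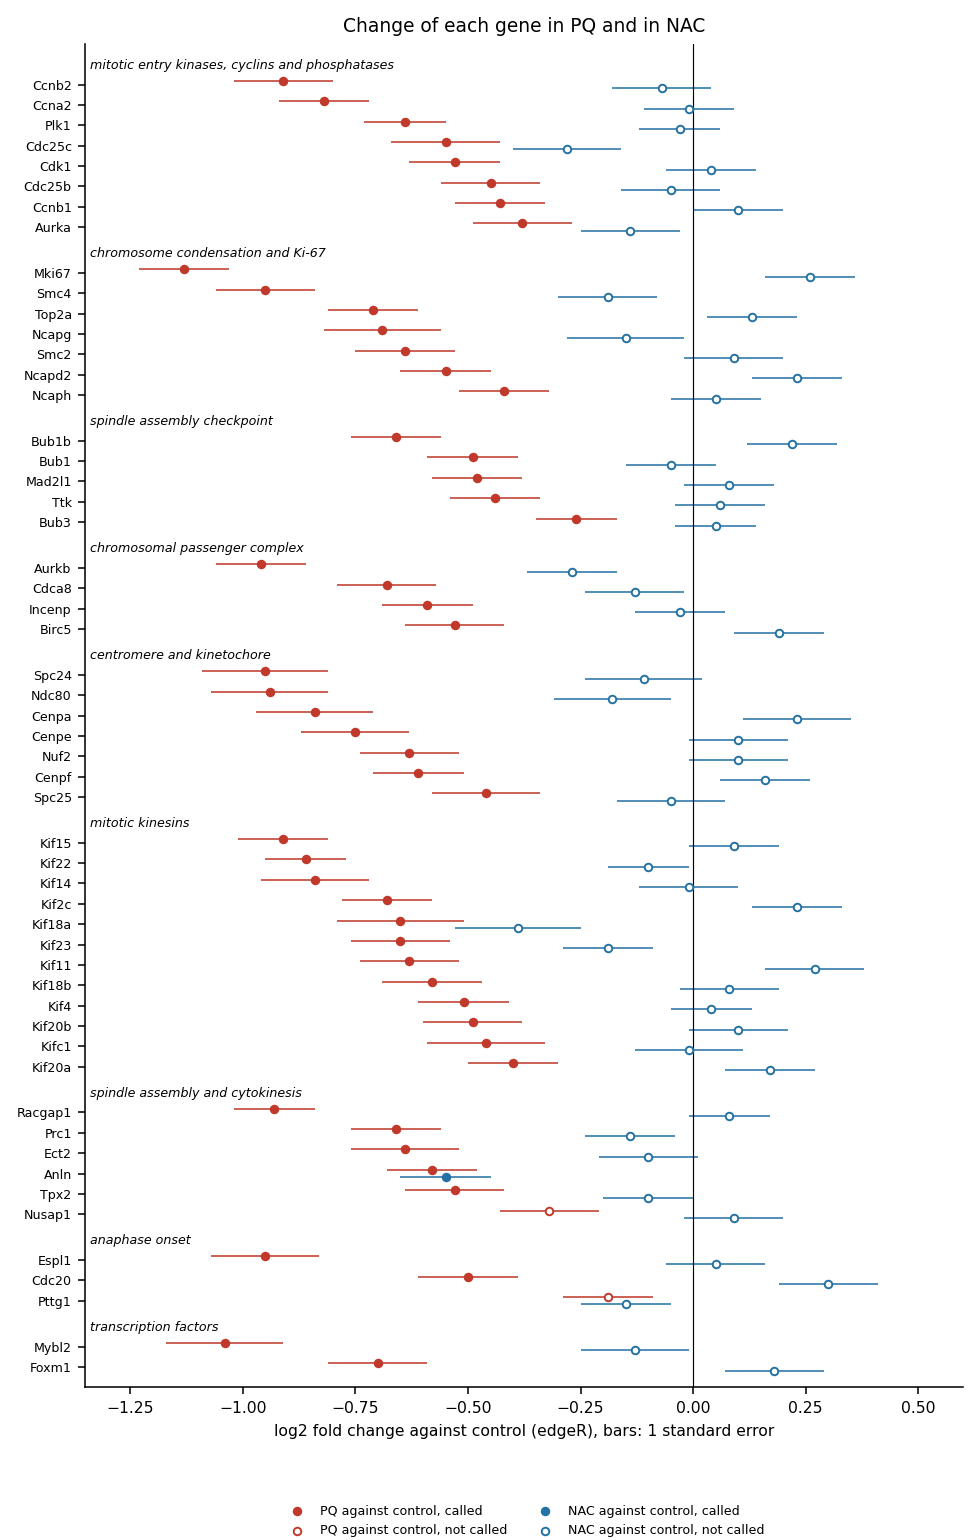
Log2 fold change of each member (edgeR; bars show 1 standard error) in PQ against control and in NAC against control, with the members grouped by role and filled points for called changes. PQ values run from -1.13 to -0.19, and NAC values lie on both sides of 0 from -0.55 to 0.30.

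Entry into mitosis is driven by Cdk1 with its cyclins, by the Cdc25 phosphatases that activate it, and by the kinases Plk1 and Aurora A. All 8 of these members were called lower in PQ, with a median log2 fold change of -0.54, and 0 of 8 in NAC by edgeR or DESeq2 (1 at an unadjusted edgeR p under 0.05, median -0.04). Cdk1, the kinase itself, stood at 160.1 and 159.7 CPM in control, 103 and 118 in PQ and 163 and 167 in NAC. Its PQ libraries lay below all the others, with a log2 fold change of -0.53 ± 0.10 (SE; edgeR adjusted p = 7.90e-04). In NAC the change of Cdk1 was 0.04 ± 0.10 (edgeR adjusted p = 0.797). Ccna2 encodes cyclin A2, which acts from S phase into early mitosis and was the most abundant mRNA of this role in FPKM (93.4 on average). It measured 321 and 302 CPM in control, 168 and 186 in PQ and 326 and 293 in NAC libraries, a log2 fold change in PQ of -0.82 ± 0.10 (edgeR adjusted p = 1.25e-05). Ccnb2, cyclin B2, changed most in PQ within this role, from 79.4 and 73.7 CPM in control to 37.4 and 44.3 in PQ, beside 69.7 and 76.6 in NAC. That is a log2 fold change of -0.91 ± 0.11 (edgeR adjusted p = 2.08e-05), with the PQ libraries far below the rest.

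The other B-type cyclin, Ccnb1, fell less, from 166 and 146 CPM in control to 109 and 122 in PQ libraries, beside 171 and 162 in NAC. Its change was -0.43 ± 0.10 (edgeR adjusted p = 0.00565), and without PQ 1 it was no longer called (-0.35). Cdc25c, a phosphatase that removes the inhibitory phosphates from Cdk1, showed 36.2 and 38.3 CPM in control, 24.2 and 26.9 in PQ and 31.7 and 29.6 in NAC libraries. Here the NAC libraries also lay below control, between the control and PQ libraries. The PQ change of Cdc25c was -0.55 ± 0.12 (edgeR adjusted p = 0.00428; -0.47 and not called without PQ 1), the NAC change -0.28 ± 0.12 (adjusted p = 0.115), and PQ against NAC -0.26 ± 0.12 (adjusted p = 0.12). Aurka, Aurora A, which matures centrosomes and activates Plk1, stood at 63.9 and 63.4 CPM in control, 44.9 and 53.0 in PQ and 56.8 and 58.8 in NAC. It had 1 of the 5 smallest PQ changes, -0.38 ± 0.11 (edgeR adjusted p = 0.0193), which was -0.26 and not called without PQ 1. The call was also lost with limma on log2 FPKM (1 or 0.1 added). The 2 members left, Plk1 (-0.64 ± 0.09) and Cdc25b (-0.45 ± 0.11), were also called lower, but Cdc25b was not without PQ 1 or without PQ 2.

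Chromosome condensation is the work of condensin I (Smc2, Smc4, Ncapd2, Ncapg and Ncaph) and of topoisomerase II alpha, and Ki-67 coats the condensed chromosomes. All 7 members of this role were called lower in PQ, with a median of -0.69, and 0 of 7 were called in NAC by edgeR or DESeq2 (2 at an unadjusted edgeR p under 0.05, median 0.09). Mki67, which encodes Ki-67, stood at 1057 and 1082 CPM in control, 452 and 522 in PQ and 1368 and 1192 in NAC. Control, PQ and NAC libraries did not overlap: PQ was lowest and NAC highest. The PQ change was -1.13 ± 0.10 (edgeR adjusted p = 5.67e-07), the largest of all 54 members in edgeR. In NAC the change was 0.26 ± 0.10 (adjusted p = 0.0679; 0.16 without NAC 1), not called except when no filter on low values was used. PQ against NAC was -1.39 ± 0.10 for Mki67 (edgeR adjusted p = 1.06e-08). Top2a, the enzyme that untangles sister DNA, had the highest level of this role in FPKM (149 on average). Its libraries measured 875 and 872 CPM in control, 484 and 581 in PQ and 1012 and 906 in NAC, and the PQ change was -0.71 ± 0.10 (edgeR adjusted p = 7.31e-05). The condensin subunits ranged from -0.95 for Smc4 to -0.42 for Ncaph in PQ, and without PQ 1 Ncapg and Ncaph were not called.

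The spindle assembly checkpoint holds anaphase back while kinetochores lack microtubules. Its 5 members were all called lower in PQ, with a median of -0.48, the smallest among the 9 roles, and 0 of 5 in NAC by edgeR or DESeq2 (1 at an unadjusted edgeR p under 0.05, median 0.06). Bub3, which carries Bub1 and BubR1 to kinetochores, had the highest level here (84.5 FPKM on average). It measured 184 and 179.6 CPM in control, 152 and 150.1 in PQ and 192 and 184 in NAC libraries. The groups did not overlap for PQ and control, but the change was small, -0.26 ± 0.09 (edgeR adjusted p = 0.0498), and lay past the threshold only in the analysis reported here, in 0 of 14 alternatives. Bub1b, which encodes BubR1, the part of the checkpoint complex that blocks Cdc20, fell from 107 and 119 CPM in control to 68.2 and 74.7 in PQ and stood at 133 and 130.0 in NAC. Its PQ change of -0.66 ± 0.10 (edgeR adjusted p = 1.76e-04) was the largest of this role, and its NAC change was 0.22 ± 0.10 (adjusted p = 0.13; 0.14 without control 1). The kinase genes Bub1 (-0.49 ± 0.10) and Ttk (-0.44 ± 0.10) and Mad2l1 (-0.48 ± 0.10), whose product is the Mad2 switch, lay between them. Leaving out PQ 1 removed the calls of Bub1, Ttk and Mad2l1 in PQ against control.

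The chromosomal passenger complex corrects faulty attachments and later marks the division plane. Its 4 members, Aurkb, Incenp, Birc5 and Cdca8, were called lower in PQ (median -0.63), and 0 of 4 were called in NAC by edgeR or DESeq2 (1 at an unadjusted edgeR p under 0.05, median -0.08). Incenp, the scaffold of the complex, stood at 181 and 167 CPM in control, 121 and 110.3 in PQ and 175 and 165 in NAC libraries. Its level was the highest of the 4 in FPKM (47.2 on average), and its log2 fold change in PQ was -0.59 ± 0.10 (edgeR adjusted p = 3.64e-04). Aurkb, the kinase Aurora B, went from 99.9 and 104 CPM in control to 50.7 and 53.99 in PQ and 80.5 and 88.3 in NAC. Both treatments lay below control, with a change of -0.96 ± 0.10 in PQ (edgeR adjusted p = 4.10e-06) and, without a call, -0.27 ± 0.10 in NAC (adjusted p = 0.0587). Borealin (Cdca8) changed by -0.68 ± 0.11 in PQ, and survivin (Birc5) had the smallest change of the 4, -0.53 ± 0.11.

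At the centromere, Cenpa is the histone variant that marks the site, and the Ndc80 complex (Ndc80, Nuf2, Spc24 and Spc25) binds microtubules. All 7 members with these roles were called lower in PQ, with a median of -0.75, and 0 of 7 in NAC by edgeR or DESeq2 (0 at an unadjusted edgeR p under 0.05, median 0.10). Spc25 had the highest level among them (46.0 FPKM on average), at 78.7 and 61.3 CPM in control, 49.5 and 52.1 in PQ and 71.9 and 63.4 in NAC libraries. The control libraries differed from each other, and the PQ change was -0.46 ± 0.12 (edgeR adjusted p = 0.0112). It was not called without PQ 1 (-0.42) or without control 1 (-0.27). Its partner Spc24 fell further, from 31.6 and 32.0 CPM in control to 17.6 and 15.3 in PQ, beside 27.9 and 31.1 in NAC, a change of -0.95 ± 0.14 (edgeR adjusted p = 1.13e-04). Cenpa stood at 48.5 and 49.5 CPM in control, 24.3 and 30.5 in PQ and 52.7 and 62.7 in NAC. PQ libraries were below and NAC libraries above control, with a PQ change of -0.84 ± 0.13 (edgeR adjusted p = 2.00e-04) and a NAC change of 0.23 ± 0.12 (adjusted p = 0.2; 0.36 without NAC 1, 0.11 without NAC 2). The large kinetochore proteins Cenpe, a kinesin, and Cenpf changed by -0.75 ± 0.12 and -0.61 ± 0.10 in PQ.

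Kinesins slide spindle microtubules apart, shorten them, or carry chromosomes along them. All 12 kinesin members were called lower in PQ, with a median of -0.64, and 0 of 12 in NAC by edgeR or DESeq2 (3 at an unadjusted edgeR p under 0.05, median 0.06). Kif22, a chromokinesin that pushes chromosome arms from the poles, was the most abundant of them (57.5 FPKM on average) and measured 141 and 149.6 CPM in control, 78.8 and 80.7 in PQ and 136 and 135 in NAC. Its libraries were close within each group, and the PQ change was -0.86 ± 0.09 (edgeR adjusted p = 6.74e-06). Kif15, which helps to keep the spindle bipolar, changed most, from 123 and 114 CPM in control to 60.7 and 65.4 in PQ, beside 132 and 121 in NAC (-0.91 ± 0.10, edgeR adjusted p = 7.56e-06). Kif18a, which damps the movements of chromosomes at the spindle equator, stood at 201 and 139.7 CPM in control, 96.7 and 120.3 in PQ and 138 and 123 in NAC libraries. Control 1 was well above control 2, and the NAC libraries lay below both. The PQ change of Kif18a was -0.65 ± 0.14 (edgeR adjusted p = 0.00299), and -0.50 and not called without PQ 1, while without control 1 it was -0.37 and still called. DESeq2 and limma on log2 FPKM (1 or 0.1 added) did not call Kif18a in PQ. Its NAC change was -0.39 ± 0.14 (edgeR adjusted p = 0.0607), and it was called when no filter on low values was used. Without control 2 the NAC change was -0.63 and called, but -0.10 without control 1, so its size rests on which control library is used.

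Kif20a (MKLP2), which brings the passenger complex to the midzone in anaphase, had 1 of the 5 smallest PQ changes. It stood at 167 and 174 CPM in control, 119.8 and 138 in PQ and 194 and 191 in NAC libraries. With a change of -0.40 ± 0.10 (edgeR adjusted p = 0.00692) it was called, but not without PQ 1 (-0.30) or with limma on log2 FPKM (1 or 0.1 added). The remaining 8 kinesins ranged from -0.84 for Kif14, the lowest member in FPKM (4.56 on average), to -0.46 for Kifc1 in PQ. Kif20b and Kifc1 lost their calls without PQ 1, and Kifc1 also without PQ 2 or control 2. Kif11 encodes Eg5, which drives the poles apart, and its change was -0.63 ± 0.11 in PQ and 0.27 ± 0.11 in NAC (edgeR adjusted p = 0.0895; 0.40 and called without NAC 2, 0.13 without NAC 1).

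Spindle assembly and cytokinesis were represented by Tpx2, Nusap1, Prc1, Anln, Ect2 and Racgap1. In PQ 5 of these 6 were called lower, with a median of -0.61, and in NAC 1 of 6 (median -0.10). Prc1, which bundles the antiparallel microtubules of the midzone, had the highest level of all 54 members, 176 FPKM on average. It stood at 672 and 597 CPM in control, 375 and 431 in PQ and 599.5 and 556 in NAC libraries, with a PQ change of -0.66 ± 0.10 (edgeR adjusted p = 1.41e-04). Racgap1, the GTPase-activating subunit of centralspindlin, changed most in this role, from 202 and 199 CPM in control to 102 and 109 in PQ, beside 212 and 211 in NAC (-0.93 ± 0.09, edgeR adjusted p = 2.56e-06). Its binding partner Ect2, which activates RhoA at the cleavage furrow, changed by -0.64 ± 0.12 in PQ, and Tpx2, which activates Aurora A on the spindle, by -0.53 ± 0.11 (not called without PQ 1).

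Anln departed from the common pattern in NAC, and Nusap1 in PQ. Anln encodes anillin, the scaffold that joins actin, myosin and septins in the contractile ring. It stood at 371 and 353 CPM in control, 219 and 264 in PQ and 256 and 239 in NAC libraries. Both treatments lay below control, with a change of -0.58 ± 0.10 in PQ (edgeR adjusted p = 4.83e-04) and of -0.55 ± 0.10 in NAC (edgeR adjusted p = 6.34e-04). PQ and NAC libraries overlapped, with a difference of -0.04 ± 0.10 (edgeR adjusted p = 0.815). Anln kept its call under all 13 alternatives in NAC. Nusap1, which binds microtubules near chromatin, measured 210.0 and 167 CPM in control, 143 and 159 in PQ and 215 and 185 in NAC. PQ 2 lay just under control 2, and the PQ change of -0.32 ± 0.11 (edgeR adjusted p = 0.0589) was not called. It was called, at -0.48, without control 2, and also when no filter on low values was used, but it was only -0.14, and not called, without control 1.

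Anaphase begins when Cdc20 turns on the anaphase-promoting complex, securin (Pttg1) is destroyed, and separase (Espl1) cuts cohesin. Of these 3 members, 2 were called lower in PQ (median -0.50), and 0 of 3 were called in NAC by edgeR or DESeq2 (1 at an unadjusted edgeR p under 0.05, median 0.05). Pttg1, the most abundant of them (110.0 FPKM on average), stood at 91.6 and 87.2 CPM in control, 78.3 and 78.8 in PQ and 77.2 and 83.8 in NAC libraries. It had the smallest PQ change of the 54 members, -0.19 ± 0.10 (edgeR adjusted p = 0.203), and was not called under any of the 14 alternatives. The separase gene Espl1 went from 46.6 and 52.0 CPM in control to 26.8 and 24.0 in PQ, beside 49.5 and 53.0 in NAC, a change of -0.95 ± 0.12 (edgeR adjusted p = 2.34e-05). Separase mRNA thus had a larger change in PQ than the mRNA of its inhibitor, each against control, although the difference between the genes was not tested. Cdc20 measured 77.8 and 94.2 CPM in control, 58.2 and 63.9 in PQ and 103 and 109 in NAC. Its PQ change was -0.50 ± 0.11 (edgeR adjusted p = 0.00383), and -0.43 and not called without PQ 1. Limma on log2 FPKM (1 or 0.1 added) did not call Cdc20 in PQ either. Its NAC change, the highest of the 54 members, was 0.30 ± 0.11 (edgeR adjusted p = 0.0555), and 0.45 and called without control 2 but 0.17 without control 1. Cdc20 was also called in NAC when no filter on low values was used.

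Foxm1 and Mybl2 encode the transcription factors FoxM1 and B-Myb, which act with MuvB on the promoters of many members. Foxm1 stood at 110.3 and 135 CPM in control, 78.2 and 72.5 in PQ and 137 and 142 in NAC libraries. Its PQ change was -0.70 ± 0.11 (edgeR adjusted p = 1.97e-04), and its NAC change was 0.18 ± 0.11 (adjusted p = 0.253; 0.34 and called without control 2, 0.04 without control 1). Mybl2 measured 37.7 and 44.6 CPM in control, 20.8 and 19.2 in PQ and 37.5 and 37.6 in NAC. The PQ change of Mybl2, -1.04 ± 0.13 (edgeR adjusted p = 2.21e-05), was second only to that of Mki67 among the members. Both genes differed between the control libraries, and unlike most members they fell further in the BGISEQ pair (-0.90 for Foxm1 and -1.21 for Mybl2) than in the Illumina pair (-0.50 and -0.86).

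Promoter letters and expression were set side by side as a description. The 35 members with CHR letters had a median PQ change of -0.64, and the 10 without them a median of -0.50. With matches counted only from -60 on, the medians were -0.64 for 31 members and -0.59 for 14, so the gap depended on the window. Among the other tested genes with a promoter, 13.4% of the 1466 with CHR letters were called lower in PQ and 8.37% of those without. Counted from -60 on, the shares were 22.7% of 406 and 8.54%. For the E2F-type motif they were 20.4% of 339 and 8.73%, or 24.8% of 113 and 8.96% from -60 on. For CCAAT they were 10.7% of 4059 and 7.95%, or 12.1% of 1945 and 8.37%. A higher share was thus not particular to the CHR. These other genes include pathway genes described below, and the differences were not tested.

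Lists of 165 other genes of the same pathways, also chosen with earlier results known, show how far the pattern reached. In PQ, edgeR called 96 of them lower and 3 higher, where 9.45% and 9.76% of all tested genes were, with a median of -0.43. In NAC, 2 were called lower and 11 higher, both smaller shares than the 9.64% and 9.01% of all tested genes, with a median of 0.09. DNA replication was the list most like the members: 29 of 31 genes were lower in PQ, with a median of -0.67. Its most abundant gene in FPKM, Pcna, the sliding clamp, changed by -0.56 ± 0.09. Pold1, the catalytic subunit of polymerase delta, changed most, from 65.6 and 75.8 CPM in control to 33.8 and 36.9 in PQ, beside 66.7 and 74.3 in NAC. In NAC the median of the replication list was 0.17. The anaphase-promoting complex itself was the list least like them, with 1 of 14 subunits lower in PQ (Anapc5, -0.31 ± 0.09), a share close to the 9.45% of all tested genes, and a median of -0.09. Its regulators had 3 of 4 lower and Fzr1, the activator Cdh1, not called (0.07 ± 0.11), with Ube2s, the E2 enzyme that extends ubiquitin chains, at -0.41 ± 0.10 and Fbxo5, the inhibitor Emi1, at -0.58 ± 0.13.

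Of 32 other kinetochore and centromere genes, 17 were lower in PQ and 1 higher, with a median of -0.41. Knl1, the platform for checkpoint proteins, changed most (-0.98 ± 0.10), and Zwint, which binds Knl1, was the gene that rose. Zwint stood at 127 and 123 CPM in control, 175 and 172 in PQ and 167 and 167 in NAC libraries, and it was higher in PQ (0.48 ± 0.09, edgeR adjusted p = 0.0012) and in NAC (0.42 ± 0.09, edgeR adjusted p = 0.00275). Condensin II had 3 of 3 genes lower in PQ (median -0.69), and its subunit Ncaph2 was also lower in NAC (-0.33 ± 0.09). Among cohesin and its regulators 6 of 13 were lower (median -0.33), with the ring subunit Rad21 at -0.62 ± 0.10. Centrosome and augmin genes had 14 of 23 lower (median -0.40), with Aspm, a spindle pole protein needed for symmetric progenitor divisions, at -0.90 ± 0.11 and Tubg1, gamma-tubulin, at -0.40 ± 0.09 and also lower in NAC (-0.31 ± 0.09). Of 13 other spindle proteins, 7 were lower and 2 higher (median -0.26). The genes that rose were Ckap2 (0.38 ± 0.09) and Clasp2 (0.29 ± 0.09), both microtubule-associated, whereas Ckap2l, related to Ckap2, was lower (-0.72 ± 0.11). Clasp2 was higher still in NAC (0.71 ± 0.09, edgeR adjusted p = 2.23e-05), and so lower in PQ than in NAC (-0.42 ± 0.09, edgeR adjusted p = 0.00171).

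Other cytokinesis genes were lower for 6 of 9 (median -0.54), with Depdc1a at -0.68 ± 0.13 and the septin gene Septin7 not called (-0.18 ± 0.12). Further regulators of mitotic entry were lower for 8 of 12 (median -0.49), with Pkmyt1, a kinase that restrains Cdk1, at -1.07 ± 0.19 and Cks2, a Cdk-binding subunit, at -0.47 ± 0.12. In the DREAM and MuvB list, 2 of 11 were lower (median -0.15), where 9.45% of all tested genes were. The 2 called lower were Rbl1, the pocket protein p107, at -0.58 ± 0.10, and the MuvB subunit Lin54 at -0.51 ± 0.11. Tfdp1, the E2F partner DP1 and the most abundant gene of this list in FPKM, was not called in PQ (-0.16 ± 0.10) and was called higher in NAC (0.28 ± 0.10, edgeR adjusted p = 0.044). The median change of this list was smaller than that of the members, a difference that was not tested. Clasp2 and Lin54 are named because their calls were few, after their values were seen.

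**Figure D5:**
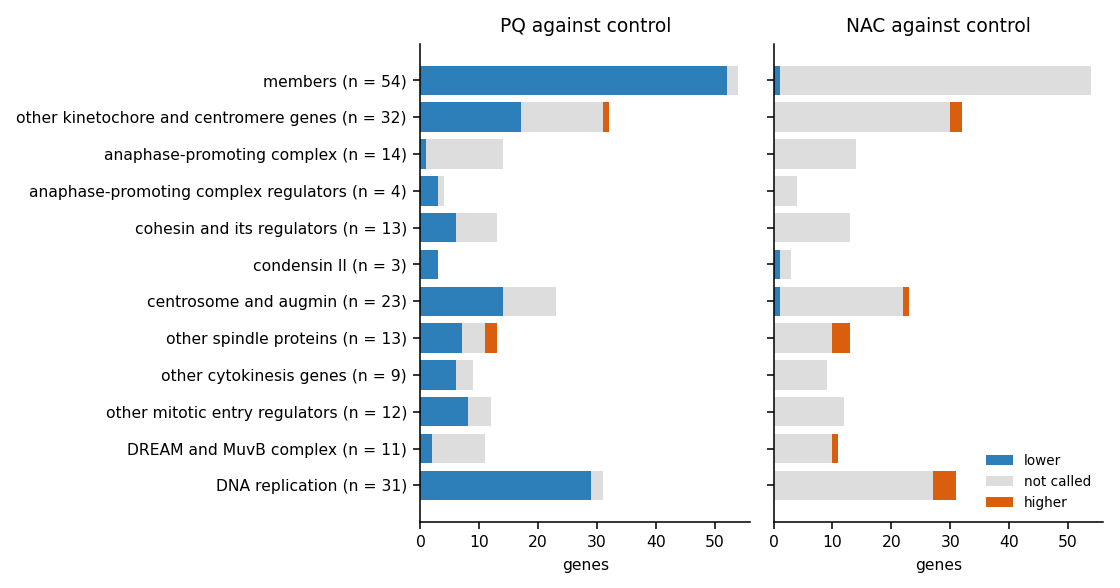
Number of genes called lower, called higher or not called (edgeR) in PQ against control and in NAC against control, for the members and for each pathway list. In PQ the part called lower fills most of the bars for the members (52 of 54) and DNA replication (29 of 31) and little of that for the anaphase-promoting complex (1 of 14).

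The Ink/Arf locus is the gene Cdkn2a, which encodes a cell cycle inhibitor and p19Arf, and Cdkn2b is a neighbouring inhibitor gene that the labels do not name. Cdkn2a stood at 14.3 and 16.4 CPM in control, 11.5 and 13.6 in PQ and 12.1 and 13.0 in NAC libraries, and Cdkn2b at 15.2 and 18.1, 15.8 and 18.7 and 11.1 and 14.4 CPM. Per length, Cdkn2a ranged from 13.7 to 19.1 FPKM over the 6 libraries and Cdkn2b from 8.14 to 13.4 FPKM, so both passed the filter, and Cdkn2a averaged 15.9 FPKM against 8.80 for the member Mybl2. Reads were therefore assigned to Cdkn2a in libraries that include control 1 and PQ 1, whose labels give the knockout. A count per gene does not say which exons are read, so it does not check the genotype, and the reads of Cdkn2b do not bear on it. Cdkn1a, chosen after its values were seen, encodes p21, which inhibits Cdk complexes and favours assembly of DREAM. Its level was 474 and 468 CPM in control, 1090 and 1035 in PQ and 223 and 255 in NAC libraries. PQ raised it (1.17 ± 0.09, edgeR adjusted p = 2.80e-07) and NAC lowered it (-0.98 ± 0.09, edgeR adjusted p = 6.05e-07), with no overlap between the groups. The median change of the members was -0.63 in PQ and 0.04 in NAC. A link between Cdkn1a and the members was not tested.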

How the data were processed

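The deposited tables give, for each gene of each library, an expected count and an FPKM value, which the authors made by aligning reads and assigning them to genes. The labels of control 1 and PQ 1 name TopHat2 2.0.11, Cufflinks 2.1.1 and build mm9, and those of the other 4 libraries name HISAT2 2.0.4, Bowtie2 2.2.5, RSEM and build mm10, yet all 6 deposited tables have the columns that RSEM writes. The expected counts were rounded and fitted with edgeR 4.0.16 (quasi-likelihood, TMM) in R 4.3.3 over all 6 libraries in 3 groups, for 11717 genes that averaged 1 FPKM or more. P-values were adjusted by the Benjamini-Hochberg method over all of them, and called means an adjusted p under 0.05. Each SE is that of the log2 fold change. Alternatives were DESeq2 1.42.0, its size factors, limma 3.58.1 on log2 FPKM with 1 or 0.1 added, no filter, a platform term, a fit of the 4 libraries of each comparison alone, with and without that term for PQ, and leaving out each library. Pipelines were tested on simulated data.

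Libraries were numbered here within each group, and values follow that order. They are printed for the members with the highest FPKM, the largest PQ change and the largest NAC change in each role, for the 5 smallest PQ changes, and for Mki67, Top2a, Cdk1, Ccnb1, Foxm1 and Mybl2. From each pathway list, the gene with the highest FPKM and that with the largest PQ change were named. Members and lists were chosen with earlier results of these data known. Totals per library ran from 9680436 to 10698241, and averaged over tested genes the spread between libraries of a group exceeded counting error. For members with fewer reads, such as Spc24 and Mybl2 (SE 0.14 and 0.13 in PQ), counting error can also matter.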

Additional observations from a re-analysis of the deposited data

How the results depend on the processing

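In PQ against control, the direction of the median and of all 54 members held under the 14 alternatives. Members called lower ranged from 35 to 51 over the leave-one-out analyses, in which a group left with 1 library is assumed to vary like the others, and were 50 with DESeq2, 43 with limma on log2 FPKM plus 1 and 37 with limma plus 0.1. The median ranged from -0.72 to -0.53 when libraries were left out. With limma plus 1, the calls of Aurka, Bub3, Cdc20, Kif18a, Kif20a, Kif20b, Kifc1, Ncaph and Spc25 were lost. Limma plus 0.1 lost these and the calls of Ccnb1, Mad2l1, Ncapd2, Ncapg, Tpx2 and Ttk. DESeq2 lost those of Bub3 and Kif18a. Genes called over the whole table were 1393 with limma plus 1, 1036 with limma plus 0.1, and 866 to 2206 with a library left out, against 2250. For the 28 members given in every library, 356 of the alternative values stayed on the same side of the threshold in this comparison, 34 lost their call, 14 of them for Bub3, and 2 gained a call.

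In NAC against control, 1277 genes were called with limma plus 0.1 and 1286 to 2126 with a library left out, against 2186. Without the filter, 2 members were called lower and 2 higher, and leaving out a library gave 1 to 3 lower and 0 to 3 higher. The median ranged from -0.03 to 0.06 when libraries were left out. Members near 0 in NAC changed sign without being called: Ccna2 (0.03 with limma plus 1 and plus 0.1, and -0.09 to 0.06 with libraries left out), Ccnb2 (-0.13 to 0.00 with libraries left out), Incenp (0.01 with limma plus 1 and plus 0.1, 0.03 with the platform covariate, -0.09 to 0.03 with libraries left out), Spc25 (0.03 with the platform covariate, -0.22 to 0.14 with libraries left out), Espl1 (-0.02 to 0.14), Nusap1 (-0.07 to 0.26) and Cdk1 (-0.00 with the platform covariate). In PQ against NAC, 2343 to 4207 genes were called with a library left out, against 3708. Where a library was left out, fewer samples remained, and for the other changes the cause was not tested.

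With 2 libraries a group, the spread is estimated over all 3 groups together. The platform and the pipeline named in the labels change together, and NAC has no Illumina library, so NAC values rest on the BGISEQ label alone on the treated side. Expected counts of 15 members were fractional in at least 1 library, in 11 of them in all 6, since reads shared with other sequences were divided among genes. Averaged over tested genes, spread between libraries of a group exceeded counting error. Protein levels and cell cycle phase were not measured in these libraries.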
